A study of Brassica rapa subsp. pekinensis with 6 samples.

Results

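Among the 57931 linear transcripts assembled from germinated Chinese cabbage seeds, 1119 carried one of 2 assembler class codes that mark a piece of RNA next to, or inside, an annotated gene without being a proper copy of it. Class p, a possible run-on, was given to 747 of them, and class e, a single-exon fragment that overlaps an intron, to 372. Each fragment was set beside the nearest transcript of the reference annotation (class 0, 33354 rows) on the same chromosome and strand, and the changes of the 2 were compared. All 1119 fragments had 1 exon, and the 2 classes are described apart. The tested material was Ver, seeds of Brassica rapa subsp. pekinensis that had germinated and were then kept at 4 °C in darkness for 25 days, the cold exposure that prepares this crop for flowering. Its control was Nor, germinated seeds of the same line held in darkness at 25 °C for about 48 hours. The line was a double haploid, so seeds of both groups share a fixed genotype, and each group had 3 libraries of ribosomal RNA-depleted total RNA. A culture dish of seeds served as a biological replicate, and whether Ver and Nor seeds came from the same dishes is not given in the sources used here. Ver and Nor seeds were taken at a like length rather than at a like age, so temperature and days since sowing cannot be told apart.

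RNA polymerase II normally transcribes past the site where the messenger is cleaved and given its poly(A) tail, and the RNA beyond that site is degraded. When that RNA is seen in a library, or when a gene's untranslated end is longer than its annotated end, an assembler builds a separate fragment downstream of the gene and codes it as a run-on. A fragment that overlaps an intron can come, among other sources, from unspliced precursor RNA or from an intron kept in a mature transcript. Libraries made without poly(A) selection, such as these, keep both kinds of RNA, and also keep small nuclear RNAs, which take part in splicing, and small nucleolar RNAs, which guide modification of ribosomal RNA.

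The libraries held between 83976912 and 104903263 estimated counts, of which the 10 largest rows took from 15.6% to 19.3%. The markers of seed storage tissue were present in every library, and so were those of greening and elongating tissue. None of the 4 cruciferin, 12 napin or 2S albumin, 17 oleosin, 24 chlorophyll a-b binding and 42 expansin transcripts was at 0 in all libraries. Summed FPKM (fragments per kilobase, scaled to sequencing depth) of the oleosins, the proteins that coat seed oil bodies, was 1046 to 1080 in Ver and 20.3 to 23.2 in Nor. For the cruciferins it was 128 to 133 in Ver and 11.9 to 13.4 in Nor, and for the napins and 2S albumins 281 to 307 in Ver and 56.7 to 59.9 in Nor. The chlorophyll a-b binding proteins reached 12602 to 12733 in Ver and 3470 to 3528 in Nor, whereas the expansins, which loosen walls of elongating cells, were at 396 to 407 in Ver and 525 to 539 in Nor. These levels moved with the groups, and their part in the changes below was not tested. In such bulk samples, fewer cells of a type and less RNA per cell cannot be told apart.

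The run-on fragments were short, with a median length of 440 bp (200 to 6502 bp), and most were weakly covered. Their mean FPKM over all libraries had a median of 1.03, and 386 of the 747 reached 1, 82 reached 10 and 22 reached 100. Only 248 had a strand (120 on the plus and 128 on the minus strand), and for the other 499 the nearest reference transcript could be looked up by chromosome only. Of the 248, 187 lay downstream of their nearest reference transcript and 61 upstream of it. The gap had a median of 224.5 bp (quartiles 88.25 and 602.75 bp), and 238 of the 248 lay within 2000 bp. The gene to which the table itself tied a run-on fragment was among the reference rows for 636 of the 747, and all 636 lay downstream of that gene, at most 1990 bp away. All 33354 reference transcripts had a length divisible by 3, so they are coding sequences without untranslated ends, and each gap starts where the coding sequence ends. RefSeq gene models do hold untranslated ends, and 304 of the 747 fragments (139 of the 248 stranded ones) overlapped the model that holds at least 50% of the reference transcript beside them. An unannotated 3′ end and true run-on RNA thus cannot be told apart for much of the class.

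Run-on fragments took a sizeable and uneven share of the estimated counts. The share was 5.16, 7.03 and 4.02% in the 3 Ver libraries and 5.96, 5.67 and 5.78% in the 3 Nor libraries. The Ver libraries lay on both sides of the Nor libraries, and the Ver values spread widely. The 4 fragments of the highest FPKM made that spread. Among them, MSTRG.27758.1 and MSTRG.27759.1 lie on opposite strands of the same bases, with equal counts in 5 of the 6 libraries. The share thus holds those counts on both strands, except in Ver library 3, where MSTRG.27759.1 was at 0. Without all 4, an alternative chosen after seeing the data, the share was 1.31, 1.26 and 1.33% in Ver and 1.17, 1.20 and 1.14% in Nor. Every Ver library then lay above every Nor library. Intron-overlapping fragments took far less, 0.187, 0.199 and 0.199% in Ver and 0.168, 0.163 and 0.169% in Nor, again with no overlap. Without their most abundant fragment the Ver libraries stayed above the Nor libraries, at 0.170, 0.183 and 0.181% in Ver and 0.163, 0.158 and 0.163% in Nor.

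**Figure D1:**
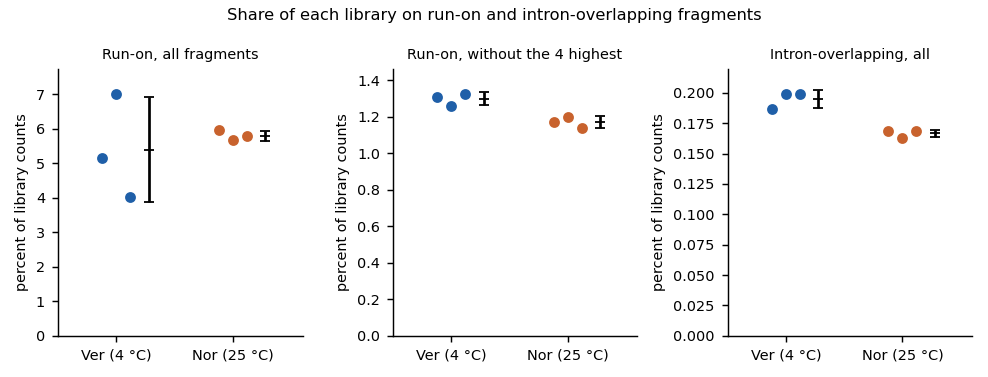
Percent of each library's estimated counts (vertical axes) on all run-on fragments, on run-on fragments without the 4 of highest FPKM, and on intron-overlapping fragments; each point is 1 of 3 Ver (4 °C) or 3 Nor (25 °C) libraries, and the bars give the mean ± SD. The Ver libraries spread between 4.02 and 7.03% in the first panel and lie above all Nor libraries in the other panels.

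Each of the 4 fragments shared both ends with a row on the opposite strand of the same place. MSTRG.27758.1 and MSTRG.27759.1 share both ends on chromosome A09 (41578745 to 41579157, 413 bp, coordinates of the B. rapa v3.0 assembly), the first on the minus and the second on the plus strand, and both are class p. MSTRG.27758.1 had 1394246, 1633761 and 1701347 estimated counts in Ver and 1731104, 1451582 and 1680270 in Nor. MSTRG.27759.1 had exactly the same counts in 5 of the 6 libraries and 0 in Ver library 3. The reference beside MSTRG.27758.1, 81 bp away, encodes AGL61, a MADS-box protein known from the central cell of the Arabidopsis female gametophyte, and had only 4, 11 and 7 counts in Ver and 2, 0 and 0 in Nor. The fragment was thus abundant where its neighbour had almost no counts, and its log2 fold change of Ver over Nor was -0.06 (edgeR, adjusted p 0.555).

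MSTRG.15568.1 on A06 (minus strand) had 892111, 863930 and 887810 counts in Ver and 874352, 748523 and 872100 in Nor. Its mirror on the plus strand, MSTRG.15569.1, of class u (intergenic), had 892117, 863934 and 887810 in Ver but 0, 0 and 872100 in Nor. MSTRG.4320.1 on A02 (plus strand) had 68332, 1397968 and 0 counts in Ver and 617707, 101008 and 641582 in Nor. Its mirror MSTRG.4319.1 held 1250526, 1398058 and 1351968 in Ver and 617707, 404031 and 641582 in Nor, equal to the fragment in 2 libraries. MSTRG.5614.1, on the plus strand, was at 0 in Ver library 3 and its mirror at 0 in Nor library 3, with equal counts in the 4 other libraries. In these pairs a value of 0 on one strand stood beside a full count on the other. In all, 9 run-on fragments share both ends with a row on the opposite strand, and 38 overlap one. The library preparation is described as keeping the strand, and why the assembler gave both strands the same count was not tested.

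**Figure D2:**
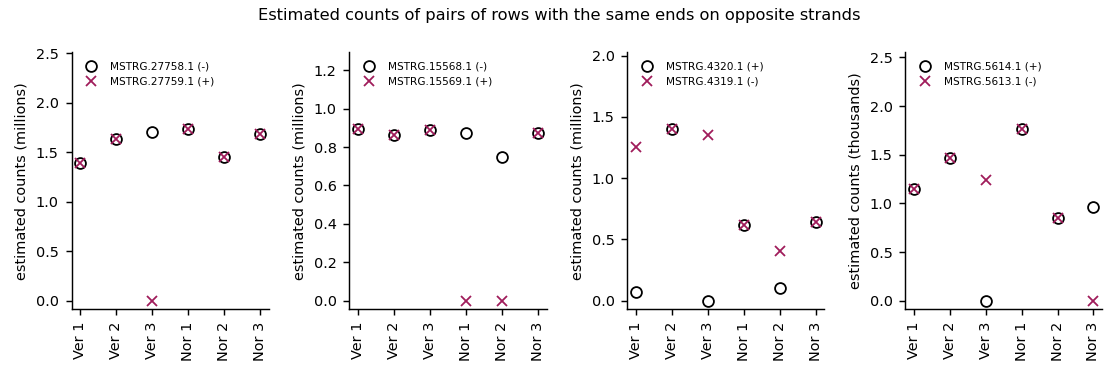
Estimated counts (vertical axes, scaled as each axis states) of 4 pairs of fragments with the same ends on opposite strands, in each Ver and Nor library; circles are the class p fragment and crosses its mirror. Where both marks coincide both strands were given the same count, as in 5 of 6 libraries for MSTRG.27758.1 and MSTRG.27759.1, and single marks at 0 lie opposite a full count.

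Change was tested with edgeR's quasi-likelihood test over all 49351 transcripts past its filter on low counts. A transcript was called at a log2 fold change of Ver over Nor above 1 in size and a p of at most 0.05 without adjustment, the thresholds of the study. Of the 747 run-on fragments 698 were tested, and 176 were called (25.2%, against 16.6% of all transcripts tested and 17.8% of the reference transcripts alone), 97 of them higher in Ver (background 8.34%) and 79 lower (background 8.25%). With Benjamini-Hochberg adjustment over all transcripts and the same fold, 136 were called (background 12.8%). The Ver and Nor libraries did not overlap for 363 of the 698 (52.0%, against 47.4% of all). The median log2 fold change was -0.01 (quartiles -0.64 and 0.55), beside 0.01 over all transcripts tested, so the class had calls in both directions and no shift as a whole. The stranded fragments gave 52 calls of 239 tested (27 higher, 25 lower), and those without a strand 124 of 459 (70 higher, 54 lower). With limma on log2(FPKM + 1), which shrinks the change of weakly covered rows, 47 of the 698 were called (6.73%, against 7.88% of all transcripts under that setting), so the share was no longer above the background. Among fragments with a mean CPM (counts scaled to library size) of at least 1, 72 of 299 were called (24.1%, against 15.0% of all).

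The rises and falls described next are the largest among fragments with an adjusted p of at most 0.05, a mean of at least 10 counts and no overlap between the groups, so the lack of overlap was fixed by that choice. Among the 5 such rises the Nor libraries held few counts or none. The largest was MSTRG.28592.1, an unstranded fragment of 224 bp at A10 1821222 to 1821445, 412 bp past an uncharacterized gene. Scaled to a common library size, it had 59.5, 59.1 and 97.0 counts in Ver and 0, 0 and 0 in Nor. No Nor library had a count of it, which makes Ver at least 23.7-fold higher against a floor of 3 counts per library (adjusted p 0.00442, edgeR). The gene beside it was at 551, 584 and 582 in Ver and 709.8, 571 and 625 in Nor, with overlapping libraries.

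MSTRG.22515.1 on A08 had 627, 580.2 and 610.5 normalised counts in Ver and 3.84, 0 and 3.78 in Nor. Its log2 fold change was 7.79 (SE 0.90, adjusted p 0.00275, edgeR). The fragment has no strand, and its nearest gene, which is early nodulin-like, had a log2 fold change of 0.11. The assembler tied it to another gene, which is not analysed here. MSTRG.9228.1 on A03 had 307, 308 and 314 in Ver and 3.84, 0 and 3.78 in Nor, and the groups were again far apart. MSTRG.21938.1 (A08, no strand) had 128, 62.1 and 108 in Ver and 2.88, 3.39 and 10.4 in Nor (4.13, adjusted p 0.00827), without overlap, beside a gene at 0.24. The fragment lies upstream of that gene, and the assembler tied it to another gene, 1758 bp away, whose change is not given here.

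MSTRG.29146.1, on the minus strand of A10 (11129409 to 11130237, 829 bp), was the strongest stranded riser, with 977, 905 and 970.5 in Ver and 16.3, 15.8 and 31.2 in Nor. Its log2 fold change was 5.48 (SE 0.35, adjusted p 0.000347, edgeR). It begins 1325 bp downstream of one gene and ends 216 bp upstream of the next, which encodes a pentatricopeptide repeat protein, a family that binds RNA in organelles. That next gene was at 943, 972 and 853 in Ver and 626, 622 and 694 in Nor, a log2 fold change of 0.51 (adjusted p 0.014), so its libraries did not overlap but it changed far less than the fragment.

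The 5 largest falls chosen in that way ran from -4.65 to -2.93 on the log2 scale. A fall of -3.51 for MSTRG.1853.1 (adjusted p 0.121, edgeR) was left out, since it did not pass the adjusted test. MSTRG.21736.1 lies 512 bp past a gene for an ATL76-like protein, a RING-type ubiquitin ligase. It had 0, 0 and 2.88 normalised counts in Ver and 25.9, 42.9 and 14.2 in Nor (log2 fold change -4.65, SE 1.22, adjusted p 0.0426, edgeR). MSTRG.24590.1 has no strand, and the nearest gene, 729 bp away, encodes a putative B3 DNA-binding protein. The assembler tied it to another gene, which is not analysed here. The fragment had 5.13, 2 and 0 in Ver and 45.1, 46.3 and 54.8 in Nor. The B3 gene fell as well, by 1.50 on the log2 scale (adjusted p 0.0203).

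Fragments past 2 zinc-finger homeodomain genes, a plant family of transcription factors, fell together with the genes. MSTRG.17283.1 (A06, 629 bp past a ZHD1-like gene) had 9.24, 4.01 and 3.84 normalised counts in Ver and 83.4, 74.5 and 63.3 in Nor. Its gene had 996, 1047 and 1164 in Ver and 2987, 3122 and 3132 in Nor. Neither set of libraries overlapped, and the log2 fold changes were -3.67 for the fragment (adjusted p 0.00361) and -1.53 for the gene (adjusted p 0.000138, edgeR). MSTRG.4631.1 (A02, plus strand, 13256755 to 13258089, 1329 bp past a ZHD5-like gene) had 12.3, 4.01 and 9.60 in Ver and 57.5, 75.7 and 114 in Nor. The ZHD5-like gene had 894, 696 and 734 in Ver and 1576, 1625 and 1550 in Nor. The fragment's change of -3.24 and the gene's of -1.03 differed by -1.99 (SE 0.59), which passed without adjustment (p 0.0182) but not with it (adjusted p 0.223, limma). MSTRG.12046.1 (A04, minus strand) also fell beside a gene that fell, but it lies upstream of that gene. The assembler tied it to another gene, 1931 bp away, whose change is not given here. MSTRG.12046.1 had 21.6, 8.02 and 15.4 in Ver and 103, 146 and 95.5 in Nor (-2.93, adjusted p 0.00757). The uncharacterized gene 1477 bp away had 3555, 4204 and 3473 in Ver and 22021, 24385 and 23058 in Nor (-2.63, adjusted p 4.91e-05, edgeR).

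Changes were also large among well covered fragments outside that ranking, and the following were chosen after their values were seen. MSTRG.19063.1 (A07, minus strand, 234 bp past a gene for a subunit of RNA polymerase I) had 6719, 7152 and 7098 normalised counts in Ver and 697, 675 and 736 in Nor. That is a log2 fold change of 3.31 (SE 0.05, adjusted p 6.07e-06, edgeR), with close values within each group. MSTRG.12005.1 (A04, no strand) had 6479, 6086 and 6453 in Ver and 630.2, 568 and 542 in Nor (3.45, SE 0.08, adjusted p 1.26e-05). MSTRG.24465.1 (A09, no strand, 552 bp past an uncharacterized gene) had 26585, 29623 and 25495 in Ver and 8786, 8290.1 and 8610.2 in Nor. Here the fragment rose by 1.67 on the log2 scale (adjusted p 6.74e-05) and the gene beside it by 0.25 (adjusted p 0.0458), the fragment holding many more counts than the gene. In the other direction, MSTRG.6675.1 (A03, minus strand) lies 392 bp past the gene of KRR1, a factor that assembles the small ribosomal subunit in yeast. It had 166, 259 and 256 in Ver and 1265, 1136 and 1221 in Nor, and fell by 2.41 (SE 0.21, adjusted p 0.000971).

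The changes of fragment and gene ran closer together where the fragment lay near the gene's coding end than where it lay farther off. Fragment and reference transcript were both tested in 198 of the 248 stranded pairs. Over these pairs the log2 fold changes had a Pearson r of 0.27 and a Spearman rho of 0.34. For the 106 pairs with the fragment at most 500 bp downstream r was 0.58 and rho 0.50, and for the 43 pairs farther downstream r was -0.04 and rho 0.06. For the 49 pairs with the fragment upstream of the reference r was 0.38 and rho 0.28. These correlations are across loci, which share libraries and depth, and carry no test. The counts of calls that follow have no share over all assembled transcripts and their neighbours beside them, so they are not read against a background. Within 500 bp, 5 pairs had both members called higher and 3 had both called lower, and no pair had opposite calls. Over all 198 pairs, 6 had both members called higher, 7 had both called lower and 1 had opposite calls, while 29 had a fragment called beside a gene not called and 23 the reverse.

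**Figure D3:**
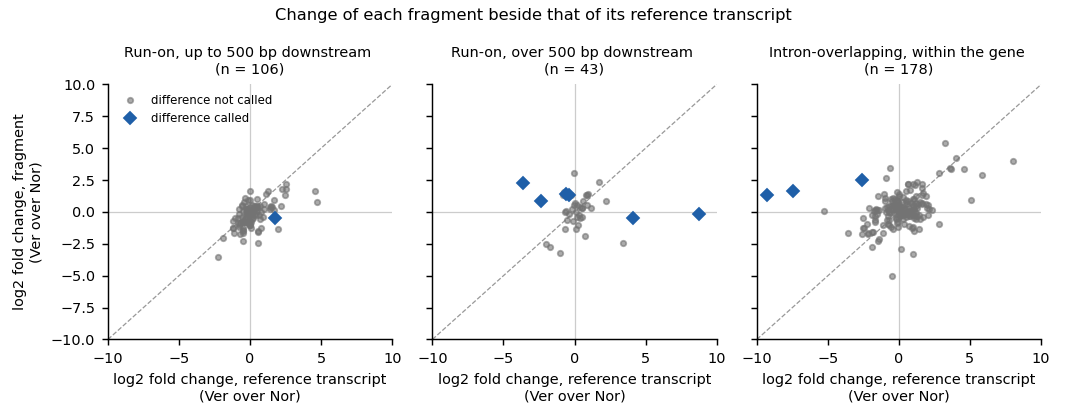
Log2 fold change of Ver over Nor of each fragment (vertical axis) against that of its reference transcript (horizontal axis), for run-on fragments up to 500 bp and over 500 bp downstream of the reference and for intron-overlapping fragments within the gene; diamonds mark pairs whose change differed in the ratio test and the dashed line marks equal change. The 106 near pairs follow the line more closely than the 43 far pairs (r 0.58 and -0.04), and 6 of the far pairs are diamonds against 1 of the near pairs.

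The difference between the 2 changes was tested directly, as the log2 ratio of fragment to reference in each library, with limma over all 17657 assembled transcripts that have such a neighbour. Of the 198 run-on pairs 8 were called at a difference above 1 and an adjusted p of at most 0.05 (4.04%, against 2.37% of all pairs), 5 in which the fragment gained on its neighbour in Ver (background 1.12%) and 3 in which it lost. Without adjustment 32 passed (16.2%, against 12.4% of all). With 1 library left out, and so fewer residual degrees of freedom, the adjusted count was 3, 2 and 4 without Ver library 1, 2 and 3, and 7, 3 and 4 without Nor library 1, 2 and 3.

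The largest gain belonged to a fragment past a peroxidase 58-like gene, a secreted class III peroxidase. MSTRG.29611.1 (A10, plus strand, 14858165 to 14858565, 602 bp downstream) had 60.6, 77.2 and 119 normalised counts in Ver and 18.2, 18.1 and 18.0 in Nor. The gene had 93.4, 99.2 and 77.8 in Ver and 1039, 1179 and 1137 in Nor. The fragment was thus higher in every Ver library while its gene was lower in every one, with log2 fold changes of 2.24 (adjusted p 0.00699) and -3.63 (adjusted p 6.98e-05, edgeR). The difference was 5.68 (SE 0.53, adjusted p 0.0102, limma). It was the only stranded run-on pair with opposite calls. A RefSeq model that holds the annotated coding transcript of the gene also overlaps the fragment.

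For MSTRG.29146.1, described above, the difference from the pentatricopeptide repeat gene was 4.92 (SE 0.37, adjusted p 0.00558, limma). That gene is the nearest by position, but the assembler tied the fragment to the gene on its other side, 1325 bp away. The change of that other gene is not given here. MSTRG.28794.1 (A10, plus strand, 3712589 to 3713977) lies 535 bp past a gene for a protein phosphatase 2C, a family that includes negative regulators of stress signalling. It had 7121, 7342 and 7133 in Ver and 2879, 2819 and 2849 in Nor, whereas the gene had 181, 262 and 203 in Ver and 321, 267 and 255 in Nor. The fragment was the more abundant by far and rose by 1.34 on the log2 scale (SE 0.03, adjusted p 1.32e-05, edgeR), while the gene had -0.38 (adjusted p 0.238), and the difference was 1.73 (adjusted p 0.0334, limma). MSTRG.5322.1 (A02) lies past a gene for a PHLOEM PROTEIN 2-LIKE A8-like protein, of a family of phloem lectins. It had 1818, 1902 and 1879 in Ver and 928, 988 and 1133 in Nor, against 7.19, 8.02 and 3.84 in Ver and 25.9, 31.6 and 41.6 in Nor for the gene (difference 2.96, adjusted p 0.0148, limma). MSTRG.9667.1 (A03) lies past a gene for a subunit of the vacuolar proton pump. It had 598, 522 and 672 in Ver and 245, 201 and 244 in Nor, and gained 1.96 on its gene (adjusted p 0.0353, limma), which moved the other way by 0.59 on the log2 scale.

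The 3 pairs in which the fragment lost were all beside genes that rose in Ver. MSTRG.23437.1 (A08, plus strand, 20431556 to 20432021) lies 679 bp past a gene for a late embryogenesis abundant (LEA) protein 1-like, one of the proteins laid down as seeds dry. The fragment had 53426, 52680 and 50484 normalised counts in Ver and 58985, 59752 and 57878 in Nor, which is high and almost level (log2 fold change -0.17, adjusted p 0.00949, edgeR). The LEA gene had 56.5, 50.1 and 57.6 in Ver and 0, 0 and 0 in Nor, at least 18.0-fold higher in Ver (adjusted p 0.00279). The fragment was thus abundant in Nor, where no library had a count of the annotated coding transcript. A RefSeq model that holds at least 50% of this transcript also overlaps the fragment, as was the case for MSTRG.5322.1 above. MSTRG.20856.1 (A07, 420 bp past a gene for an MLP-like protein 43) had 1140, 1135 and 1022 in Ver and 1541, 1440 and 1517 in Nor. Its gene had 228, 210.4 and 203 in Ver and 43.2, 76.8 and 70.9 in Nor, so the 2 moved apart by -2.20 (adjusted p 0.0365, limma). MSTRG.13219.1 on A05 had 38.0, 71.1 and 81.6 in Ver and 78.6, 96.0 and 97.4 in Nor, against 483, 521 and 609.5 in Ver and 38.4, 35.0 and 18.9 in Nor for its uncharacterized gene (difference -4.65, adjusted p 0.0186, limma).

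**Figure D4:**
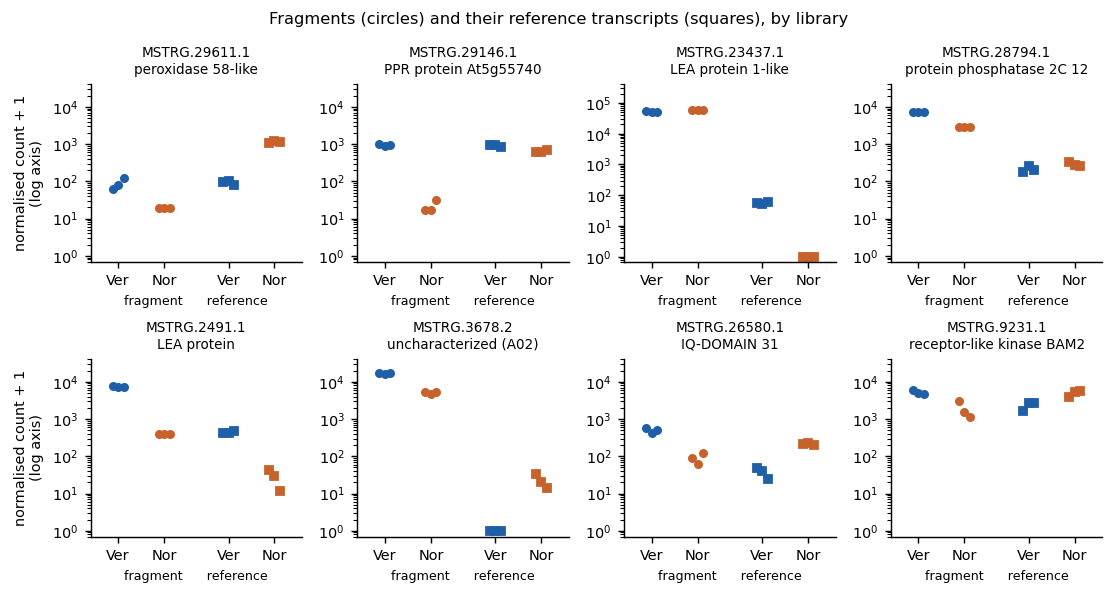
Normalised counts plus 1 (log axis) of 8 fragments (circles) and their reference transcripts (squares) in the 3 Ver and 3 Nor libraries; the upper panels are run-on and the lower intron-overlapping fragments. For MSTRG.29611.1 and MSTRG.26580.1 the fragment is higher and the reference transcript lower in Ver, and for MSTRG.2491.1 both are higher. For MSTRG.23437.1 and MSTRG.3678.2 the reference transcript is at 0 in 1 group while the fragment is abundant in both.

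Some run-on fragments overlap small RNA genes of the RefSeq annotation by at least 1 base, on either strand. A small nucleolar RNA gene was overlapped by 48 fragments and a small nuclear RNA gene by 30, while 6 overlapped tRNA genes and 3 overlapped miRNA genes. These fragments were better covered than the rest, with a median FPKM of 15.2 for the small nuclear and 2.26 for the small nucleolar RNAs. Of 47 small nucleolar RNA fragments tested, 4 were called higher and 9 lower (27.7% in all, against 16.6% of all transcripts, 8.34% higher and 8.25% lower), and the groups did not overlap for 30 (63.8%, against 47.4%). Of 28 small nuclear RNA fragments tested 2 were called (7.14%, against 16.6%). The most abundant, MSTRG.3990.1 on A02, had 153082, 129443 and 142336 estimated counts in Ver and 169351, 134359 and 153940 in Nor, with overlapping libraries and a log2 fold change of -0.12 (adjusted p 0.373, edgeR).

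Few run-on fragments lay beside genes of the lists for cold, flowering or seed stores. The lists match words in gene descriptions, so the cold list takes LEA proteins and dehydrins, and the flowering list takes any MADS-box protein. Of the 2 stranded and 2 unstranded fragments beside a gene described as cold-related or LEA, 3 were tested and 1 was called. That one, MSTRG.9258.1 (A03, no strand), lies 534 bp past the gene of COR413-PM2, a cold-regulated plasma membrane protein. It had 123, 92.2 and 162 in Ver and 257, 297 and 329.9 in Nor, and fell by 1.23 on the log2 scale (adjusted p 0.0219, edgeR). This fragment is one of those that overlap a small nucleolar RNA gene of RefSeq. The COR413-PM2 gene had 528, 712 and 603 in Ver and 448, 413 and 402 in Nor (0.55, adjusted p 0.0441). Both sets of libraries were free of overlap, in opposite directions, but without a strand the pair was not in the ratio test. MSTRG.8757.1, past an LEA group 3-like gene, had 167, 201 and 179 in Ver and 129, 129.9 and 143 in Nor (0.44, adjusted p 0.112). Its gene was at 217, 176 and 176 in Ver and 10.6, 0 and 10.4 in Nor. Of the 2 fragments beside genes of the flowering list, AGL61 (above) and CONSTANS-LIKE 10, neither was called. Of 14 fragments beside ribosomal protein genes 13 were tested and 2 were called, both lower. The 5 beside genes for splicing and other RNA-processing factors were all tested and none was called. Of all transcripts tested 16.6% were called, and these lists are too short to be read against that share.

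The intron-overlapping fragments were longer, with a median of 1238 bp (209 to 6334 bp), and none was abundant. Their median FPKM was 1.15, 16 reached 10 and none reached 100. The nearest reference transcript overlapped the fragment for 275 of the 372, with a median of 87.2% of the fragment inside its coding span. For 140 the fragment covered the whole span of the reference, and 82 lay wholly inside it. For the other 97 the nearest reference lay 5 to 49175 bp away (median 4710 bp), since the gene in which the assembler had placed them is not analysed here. A fragment's FPKM was above that of its reference in 250 of 372 pairs, with a median ratio of 2.87, and in 193 of the 275 that overlap. Among overlapping pairs with both rows tested for change (below), it was above in 101 of 178. It was above in only 43 of the 99 such pairs where the fragment covers the whole reference span, and in 9 of the 40 with both ends equal. The assembler divides reads that fit both rows between them, so the FPKM ratio is an estimate.

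Of 364 intron-overlapping fragments tested, 76 were called (20.9%, against 16.6% of all transcripts), 52 higher in Ver (background 8.34%) and 24 lower (background 8.25%). With adjustment and the same fold 56 were called (background 12.8%), and the groups did not overlap for 151 (41.5%, against 47.4% of all). On log2(FPKM + 1) with limma 29 of the 364 were called (7.97%, against 7.88% of all under that setting), a share near the background. The median log2 fold change was 0.15 (quartiles -0.29 and 0.69), beside 0.01 over all transcripts. For the reference transcripts of the 260 pairs with both tested the median was 0.11, close to the 0.11 of the fragments in those pairs. The higher calls outnumbered the lower both for the fragments that overlap their reference (39 higher, 20 lower) and for those that do not (13 higher, 4 lower).

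The rise with the lowest adjusted p was in an LEA gene. MSTRG.2491.1 (A01, plus strand, 24879418 to 24880407) had 7582, 7410 and 7138 normalised counts in Ver and 385, 384 and 399.8 in Nor. The LEA transcript it overlaps had 432, 421 and 462 in Ver and 41.2, 29.4 and 10.4 in Nor. Both rose, by 4.24 (SE 0.05, adjusted p 1.8e-06) and 4.02 (adjusted p 0.00484, edgeR), and the difference was 0.13 (adjusted p 0.936, limma). The fragment held more counts than the transcript in every library. A second LEA gene, LEA 3 on A10, carried MSTRG.28474.1 with 307, 375 and 464 in Ver and 61.4, 21.5 and 30.2 in Nor (3.33, SE 0.47, adjusted p 0.00562). Its reference had 113, 56.1 and 0 in Ver and 0, 13.6 and 0 in Nor, too uneven for a call.

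MSTRG.22139.1 (A08) overlaps the gene of OEP16-2, a pore protein of the plastid outer envelope. It had 429, 379 and 387 in Ver and 9.59, 9.03 and 17.0 in Nor (5.05, SE 0.33, adjusted p 0.000391, edgeR), while the annotated transcript had only 7 counts, all in Ver library 3. No RefSeq gene model overlaps the fragment, which reaches past the end of the annotated transcript. MSTRG.22320.2 (A08) had 242, 236 and 222 in Ver and 7.67, 2.26 and 13.2 in Nor (4.88, adjusted p 0.00445). MSTRG.28145.3 (A09) had 236, 62.1 and 23.0 in Ver and 0.959, 5.65 and 0.945 in Nor, the largest fold of the class (5.39, SE 1.28, adjusted p 0.0317) but with uneven Ver libraries. MSTRG.5918.2 (A02) had 38.0, 32.1 and 64.3 in Ver and 0, 0 and 3.78 in Nor (4.97, adjusted p 0.0347). Its groups were apart, at low counts.

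Falls were chosen in the same way as for the run-on fragments, with no overlap between the groups. The lowest log2 fold change of the class, -5.01 for MSTRG.5128.2, did not pass the adjusted test (adjusted p 0.0858, edgeR) and rested on 1 Nor library, with 10.3, 3.01 and 2.88 in Ver and 485, 14.7 and 30.2 in Nor. MSTRG.20253.1 (A07) had 1160, 1042 and 1159 in Ver and 5265, 5390 and 5367 in Nor, and fell by 2.25 on the log2 scale (adjusted p 2.01e-05, edgeR), with its reference at -1.45. MSTRG.16067.2 overlaps a gene for a fucosyltransferase, an enzyme that adds fucose to cell wall sugars. It had 202, 115 and 124 in Ver and 786, 1312 and 814 in Nor (-2.72, adjusted p 0.00369), and its reference had -1.88 (adjusted p 0.121). MSTRG.27685.1 overlaps a gene for a glutathione S-transferase, a detoxifying enzyme, and had 19.5, 21.0 and 3.84 in Ver and 149, 199.9 and 70.9 in Nor (-3.23, adjusted p 0.0318). MSTRG.7247.2 (A03) had 33.9, 70.1 and 43.2 in Ver and 557, 383 and 492 in Nor, and MSTRG.11555.1 (A04) had 32.8, 23.0 and 18.2 in Ver and 116, 96.0 and 118 in Nor. One fragment in a gene for an RNA-binding protein also fell, MSTRG.26.2 in the gene of glycine-rich RNA-binding protein 10 (A01), of a family that binds RNA in the cold. It had 233, 259 and 211 in Ver and 782, 496 and 819.5 in Nor (-1.57, adjusted p 0.00643), and its reference fell by 1.89 (adjusted p 0.0204).

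Intron-overlapping fragments and their reference transcripts moved only loosely together. Over the 260 pairs with both tested r was 0.33 and rho 0.24. It was 0.38 (rho 0.32) for the 178 pairs that overlap and 0.21 (rho 0.05) for the 82 that do not, again as a description across loci that share libraries. Both members were called higher in 10 pairs and lower in 7. Opposite calls were made in 5, all with the fragment higher and the reference lower. These counts, too, have no share over all pairs beside them. The ratio test called 8 of 260 (3.08%, against 2.37% of all pairs), 7 with the fragment gaining in Ver (background 1.12%) and 1 losing. With 1 library left out the count was 7, 4 and 4 without Ver library 1, 2 and 3, and 6, 4 and 5 without Nor library 1, 2 and 3. Without adjustment 44 passed (16.9%, against 12.4%). Of the 8, 3 overlap their reference, and the 5 others compare a fragment with another gene than the one in which the assembler placed it.

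In 2 of those 3 the fragment was called higher and the annotated transcript lower. MSTRG.3678.2 (A02, minus strand, 3817145 to 3819371) was the most abundant fragment of the class, with 16776, 16102 and 16759 in Ver and 5307, 4789 and 5399 in Nor. Its uncharacterized reference had 0, 0 and 0 in Ver and 31.7, 19.2 and 13.2 in Nor. The fragment rose by 1.68 on the log2 scale (SE 0.05, adjusted p 4.02e-05), and the reference was at least 7.15-fold lower (adjusted p 0.0143, edgeR), for a difference of 5.15 (SE 0.35, adjusted p 0.0042, limma). MSTRG.26580.1 (A09, minus strand, 33071923 to 33072813) lies in the gene of IQ-DOMAIN 31, a calmodulin-binding protein. It had 572, 427 and 508 in Ver and 86.3, 59.9 and 123 in Nor, against 46.2, 39.1 and 24.0 in Ver and 215, 233 and 202 in Nor for the annotated transcript. The 2 moved in opposite directions without overlap in either, by 2.48 (adjusted p 0.00384) and -2.57 (adjusted p 0.00305, edgeR), and differed by 5.06 (SE 0.47, adjusted p 0.0102, limma).

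The third, MSTRG.18026.1 (A06), overlaps a gene for a cineole synthase-like enzyme of terpene synthesis. It had 173, 308 and 635 in Ver and 15.3, 30.5 and 394 in Nor, with overlap, and was not called on its own (1.34, adjusted p 0.53, edgeR). Its reference had 0, 0 and 0 in Ver and 71.0, 64.4 and 100.2 in Nor, at least 26.3-fold lower in Ver. Nor library 3 decides that call, since without it the log2 fold change was 4.02 and was called. The difference of 7.73 (SE 1.18, adjusted p 0.0436, limma) thus rests largely on the reference. This fragment also overlaps a row on the opposite strand, as 49 of the 372 do. Another opposite pair was MSTRG.9231.1 in the gene of BAM2, a receptor-like kinase related to CLAVATA1. It had 5852, 4888 and 4843 in Ver and 2999, 1576 and 1165 in Nor, and the spliced transcript 1624, 2752 and 2673 in Ver and 3861, 5307 and 5749 in Nor. Fragment and transcript changed by 1.44 (adjusted p 0.0404) and -1.08 (adjusted p 0.0327, edgeR), but their difference of 2.65 did not pass (adjusted p 0.127, limma). These 2 rows share both ends. In each group the library with the most counts of the fragment had the fewest of the transcript. The part of the assembler's division of reads in the opposite calls was not tested, nor was the sum of both rows.

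Of the 5 ratio calls in which the reference does not overlap the fragment, 3 are given here. MSTRG.2277.1 (A01) had 283, 239 and 269 in Ver and 85.4, 83.6 and 65.2 in Nor (1.76, adjusted p 0.00229, edgeR), with no overlap. The reference 31269 bp away, for a probable inactive protein kinase, had 1244, 1324 and 1515 in Ver and 8238, 8769 and 8402 in Nor, and the difference was 4.38 (adjusted p 0.00558, limma). MSTRG.16776.1 (A06) was level, with 248, 186 and 208 in Ver and 196, 209 and 197 in Nor, beside an actin-12-like gene 3101 bp away at 4.11, 17.0 and 10.6 in Ver and 198, 199.9 and 181 in Nor. MSTRG.22661.1 (A08), the one fragment that lost, had 342, 278 and 337 in Ver and 174, 233 and 153 in Nor, while a gene 23126 bp away had 29.8, 43.1 and 41.3 in Ver and 0, 0 and 0 in Nor. At these distances the partner was matched by position only. For MSTRG.2277.1, however, a RefSeq model that holds at least 50% of the reference also overlaps the fragment. MSTRG.15586.1 (A06), 3723 bp from a PLANT CADMIUM RESISTANCE 6 gene, was called opposite to it (1.27 and -1.40), but the difference had an adjusted p of 0.0612 (limma).

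The 5 most abundant fragments included MSTRG.3678.2 and MSTRG.2491.1, called higher above, and 3 that were not called. One of these, MSTRG.21138.1, is described below. MSTRG.9094.1, in a gibberellin-regulated protein 7-like gene, of a family of small cysteine-rich peptides, was level. It had 2622, 2469 and 2486 in Ver and 2669, 2391 and 2567 in Nor, with full overlap (-0.01, adjusted p 0.93, edgeR). MSTRG.2257.1, in a DRT100-like gene, varied within the groups, at 2804, 7235 and 2634 in Ver and 10355, 4034 and 11048 in Nor (-1.01, adjusted p 0.274). Without Ver library 2 its log2 fold change was -1.63 and was called.

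A subset of 42 intron-overlapping fragments start and end at exactly the bases where a reference transcript on the same strand starts and ends. They are annotated as the same span without its introns spliced out, and are called the unspliced rows here, but shared ends do not show how many of their counts came from unspliced RNA. At some loci the counts of both rows ran in opposite directions within a group. MSTRG.881.1 had 30, 589 and 104 estimated counts in Ver and 42, 42 and 73 in Nor, and its reference 714, 117 and 619 in Ver and 333, 234 and 348 in Nor. The fragment was high in Ver library 2, where the reference was low, and the part of the assembler's division of reads in this was not tested. In 40 of the 42 both members were tested. The unspliced fragment was called higher in 9 and lower in 2, and the spliced reference higher in 5 and lower in 6, where 8.34% of all transcripts were called higher and 8.25% lower, and 17.8% of reference transcripts in either direction. The ratio test called none of the 40 (limma), and 5 passed without adjustment. The fragment's part of the summed FPKM of both was 26.6, 29.6 and 29.5% in Ver and 32.9, 30.6 and 46.7% in Nor. By the median over the 42 loci it was 32.8, 31.1 and 31.5% in Ver and 20.3, 26.5 and 27.5% in Nor. The sum put every Ver library below every Nor library and the median put every Ver library above, so the order of the groups turns on the weight given to abundant loci. The sum in Nor library 3 is led by MSTRG.21138.1 in the gene of chloroplast ribosomal protein L31, with 537, 1335 and 1345 normalised counts in Ver and 1364, 661 and 5723 in Nor. Its spliced transcript had 7787, 7370 and 6639 in Ver and 5411, 5559 and 737 in Nor, so in that library most of the locus was assigned to the unspliced row. The fragment's part was higher in Ver than in Nor at 24 of the 42 loci.

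**Figure D5:**
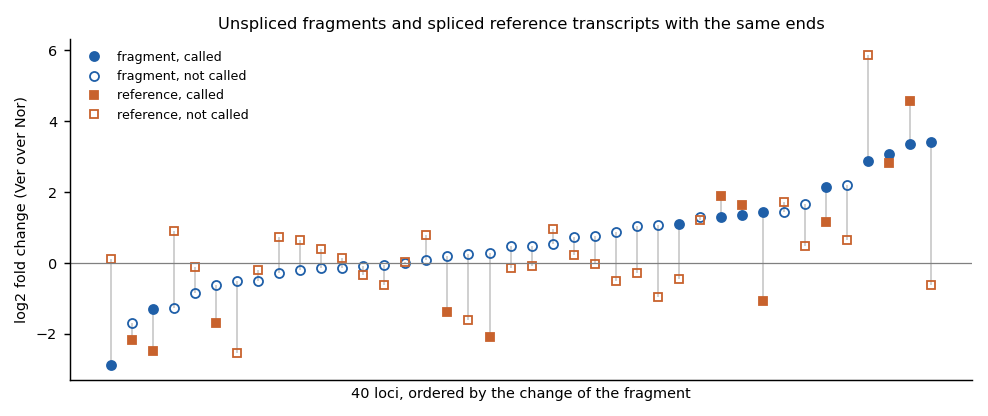
Log2 fold change of Ver over Nor (vertical axis) of the unspliced fragment (circles) and the spliced reference transcript with the same ends (squares) at 40 loci, ordered along the horizontal axis by the change of the fragment; filled marks were called and a line joins the 2 members of a locus. Filled circles number 9 above and 2 below the zero line and filled squares 5 above and 6 below, and the 2 members of a locus often lie far apart.

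Some of these loci moved as a whole, and the examples were chosen after their values were seen. MSTRG.11121.1, in the gene of cyclic dof factor 2, which in Arabidopsis represses CONSTANS and delays flowering, had 236, 328 and 418 in Ver and 39.3, 26.0 and 50.1 in Nor. Its log2 fold change of 3.08 (SE 0.37, adjusted p 0.00305, edgeR) stood beside 2.83 for the spliced transcript (adjusted p 0.000777), and the 2 differed by only 0.21 (adjusted p 0.898, limma). MSTRG.25946.1, in a locus described as a histone-lysine N-methyltransferase, had 575, 749.6 and 656 in Ver and 1.92, 135 and 55.8 in Nor. Its change of 3.36 had an adjusted p of 0.115, while the spliced transcript rose by 4.57 (adjusted p 0.00355, edgeR). At another locus the unspliced fragment was uneven within both groups. MSTRG.928.1, in a reticuline oxidase-like gene, had 503, 605 and 198 in Ver and 4368, 4522 and 657 in Nor, and a change of -2.87 with an adjusted p of 0.0627.

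By the lists of gene descriptions used here, 3 intron-overlapping fragments had a gene of the flowering list as nearest reference and 3 a gene of the cold list. The lists do not hold cyclic dof factor 2, and the cold-list genes here are LEA proteins and a dehydrin. Only 1 of the flowering-list genes and 2 of the cold-list genes overlapped the fragment, and the others are neighbours by position. MSTRG.22667.1 (A08, minus strand, 15156253 to 15157060) has the same ends as a CONSTANS-LIKE 1-like transcript, of a family of zinc finger proteins whose founder CONSTANS promotes flowering in Arabidopsis. The fragment had 681, 782 and 1429 in Ver and 567, 212 and 358 in Nor, with no overlap. The spliced transcript had 937, 938 and 514 in Ver and 121, 379 and 268 in Nor, also apart. Log2 fold changes were 1.35 (SE 0.47, p 0.033, adjusted p 0.095) and 1.64 (adjusted p 0.0625, edgeR), so neither row passed alone after adjustment. The call of the fragment was lost when any of 4 of the 6 libraries was left out (log2 fold changes of 0.95 to 1.48 without them). Among the Ver libraries the fragment was highest in library 3, where the spliced transcript was lowest. The part of the assembler's division of reads between the 2 rows was not tested, nor was their sum. MSTRG.27479.1 lies 8780 bp from the gene of SVP, a MADS-box repressor of flowering in Arabidopsis. It had 296, 462 and 389 in Ver and 426, 326 and 326 in Nor (0.09, adjusted p 0.822), while SVP itself had 833, 839 and 778 in Ver and 525, 457 and 476 in Nor (0.75, adjusted p 0.00408). MSTRG.2958.1, 12238 bp from AGL29, had 475, 511 and 484 in Ver and 343, 363 and 335 in Nor, a change of 0.50 (adjusted p 0.02) that is under the fold threshold. Among the cold list, the LEA fragments MSTRG.2491.1 and MSTRG.28474.1 were called higher. The third, MSTRG.26555.3, lies 1840 bp upstream of a dehydrin Xero 1-like gene, whose product protects drying cells. It had 1255, 1456 and 1600 in Ver and 1534, 1239 and 538 in Nor (0.38, adjusted p 0.551), whereas the dehydrin gene had 324, 287 and 228 in Ver and 3.84, 15.8 and 8.51 in Nor.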

How the data were processed

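Total RNA of germinated seeds was depleted of ribosomal RNA, made into strand-specific libraries and read as pairs. The authors trimmed reads with Cutadapt, aligned them to the B. rapa v3.0 genome and assembled and quantified transcripts with StringTie and Ballgown. The submitters' processing notes name HISAT2, StringTie and TopHat. The deposited table gives, per transcript and library, FPKM values and estimated counts, both made by the authors. StringTie divides shared reads between isoforms by estimation, so neither value counts reads directly. A table of circular RNAs was not used. No sample column was left aside. Estimated counts were whole numbers and entered the tests as deposited.

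Class p and class e rows were matched to the nearest class 0 row on the same chromosome and strand, and rows without a strand to the nearest on the chromosome. Each transcript was tested with edgeR 4.0.16 in R 4.3.3 (TMM factors, filterByExpr, quasi-likelihood test, Benjamini-Hochberg adjustment over 49351 transcripts, common dispersion 0.363). SE is the log2 fold change over the square root of F. Normalised counts are estimated counts scaled to the mean effective library size. The log2 ratio of fragment to reference (CPM, prior count 2) was tested with limma 3.58.1 over 17657 pairs. The procedures were tested on simulated data. A floor of 3 counts per library bounds a fold against a group at 0 and covers counting error only. With 3 against 3 libraries an exact permutation test cannot go below 0.1, so shares are given as values. P-values weigh the difference between Ver and Nor against the spread of these 6 libraries within their groups. RefSeq models (assembly CAAS_Brap_v3.01) were used only for overlap by position with gene models and their types, and strand was not compared. Of 4891 reference transcripts whose description names a RefSeq gene 4773 overlapped it.

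Named fragments were, per class, up to 5 largest rises and falls (adjusted p at most 0.05, groups apart, mean of at least 10 counts) and the 5 of highest FPKM. Pairs called in the ratio test, pairs with opposite calls and fragments beside genes of the flowering or cold list were named too. Members, lists and the 500 bp split were chosen with earlier results of these data known. Alternatives were DESeq2 1.42.0, other factors, filters, priors and pairings, limma on log2(FPKM + 0.1) and log2(FPKM + 1), a replicate block, and leaving out each library.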

Additional observations from a re-analysis of the deposited data

How the results depend on the processing

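The number of run-on fragments called (176 of 698) was 47 of 698 with limma on log2(FPKM + 1), 6.73% against 7.88% of all transcripts. With a mean CPM of at least 1 it was 72 of 299, 24.1% against 15.0% of all. It was 289 without the fold threshold and 155 to 173 with 1 library left out, for which the share over all transcripts is not given here. The intron-overlapping count (76 of 364) was 29 of 364 on log2(FPKM + 1), 7.97% against 7.88% of all. It was 131 without the fold threshold and 67 to 75 with 1 library left out, again without the share over all transcripts. The run-on median log2 fold change (-0.01) was 0.084 at a mean CPM of at least 1, 0.024 without composition factors and -0.030 to 0.034 with 1 library left out. The intron-overlapping median (0.15) was 0.085 on log2(FPKM + 1), 0.18 without composition factors and 0.16 to 0.20 with 1 library left out, so it stayed above 0 in these alternatives. Run-on pairs with a called ratio (8) became 15 on FPKM ratios, 13 with a prior count of 8, 5 within 2000 bp, 32 on the unadjusted p and 2 to 7 with 1 library left out. Intron-overlapping pairs (8) became 2 with the gene named by the table, 2 with a shared gene identifier, 2 within 2000 bp, 44 on the unadjusted p and 4 to 7 with 1 library left out. No run-on pair shares a gene identifier, so that alternative gave no value. Among these alternatives, the share over all pairs is given above for the unadjusted p only. The difference in the run-on share (-0.401 percentage points of the counts, Ver minus Nor) turned to 0.129 without the 4 fragments of highest FPKM and lay between -1.21 and 0.292 with 1 library left out, positive without Ver library 3.

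Replicate numbers did not pair the libraries: deviations of same-numbered libraries correlated at 0.006, 0.009 and 0.002. With a replicate block 157 run-on and 70 intron-overlapping fragments were called, and 0 and 0 ratio pairs. Over the 51 named fragments and 700 alternative values, 678 kept direction and side of the threshold, 19 fell short of it, 3 newly passed it and none changed direction. Of the 19, 13 came with log2(FPKM + 1), where rows of low FPKM are shrunk. Alternatives with the gene named by the table, without the 4 highest rows and without rows overlapped on the opposite strand were chosen after seeing the data. Leaving the last aside gave 171 run-on and 68 intron-overlapping calls. Weak coverage limits precision, since only 386 of 747 run-on and 211 of 372 intron-overlapping fragments reached a mean FPKM of 1.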
